A study of Acer rubrum with 15 samples.

Results

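Small interfering RNAs (siRNAs) that the table lists mainly in leaves kept cool for 14 days are described here. They were chosen by presence: a predicted siRNA had to have reads in at least 4 of the 6 cool libraries and in at most 1 of the 6 warm libraries. Of 7972 predicted siRNAs, 31 met the rule. Small RNAs were sequenced from leaves of cuttings of 'Autumn Blaze', a maple cultivar planted for red foliage and labelled Acer rubrum, with 3 libraries in each of 5 groups. On day 14 the warm groups had 30 °C by day and 20 °C by night, with 100% light (CC) or 40% light (CL), and the cool groups had 15 °C by day and 5 °C by night, with 100% light (LC) or 40% light (LL). The day 0 group (Control) was mixed leaf material from untreated cuttings, for which no light level is given. The labels call the libraries biological replicates but do not say that they came from separate plants, so spreads and p-values measure the variation between these samples, whatever its source. All plants were cuttings of 1 cultivar, leaf identity was not checked because the table counts small RNAs, and fewer cells of a type and less RNA per cell cannot be told apart in such bulk samples.

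Plant siRNAs are cut by DICER-LIKE enzymes from double-stranded RNA and loaded into ARGONAUTE proteins. One large class guides DNA methylation and keeps transposons and repeats silent. Others, the secondary siRNAs, arise after a microRNA has cut a transcript, and act on messenger RNAs, among them those of resistance proteins and of auxin response factors. In leaves, siRNAs are also known for defence against viruses. The names used here (novel_sir and a number) are the study's own labels for predicted siRNAs and carry no function, so no role is given to any of them, and sequences and positions were not used here.

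An siRNA row of the table holds either 0 or at least 10 reads in a library, so an siRNA called "listed" in a library had at least 10 reads there and one listed at 0 had between 0 and 9. The 15 libraries held 15652847 to 20822592 counted reads, of which 418016 to 769497 belonged to siRNAs. By counted reads the LC libraries were the smallest, with 15652847 to 16291802 counted reads, against 18166662 to 20613304 in LL, 19018269 to 20822592 in CL and 20064125 to 20607370 in CC. They also listed the fewest siRNAs of any kind among the day 14 groups, 2908 to 3286, against 3820 to 4098 in LL, 5038 to 5097 in CL and 3787 to 5025 in CC. By siRNA reads, LC was not the shallowest group, with 419624 to 596193 against 418016 to 560478 in LL and 430786 to 573587 in Control. The rule turned round, with warm in place of cool, was met by 485 siRNAs, and the same rule by light was met by 297 siRNAs for shaded over full light and 53 for full light over shaded. The set for cool leaves, at 31, was thus the smallest of the 4.

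Depth was evened out by computing how many siRNAs would keep 10 reads if every library were thinned to 15652847 counted reads. The 31 siRNAs would then be listed 18.7, 21.9 and 21.0 times in the LC libraries, from 20, 23 and 21, and 21.6, 20.6 and 9.86 times in the LL libraries, from 26, 26 and 16. In the warm libraries the expected number was 1.87 to 2.18 in CC and 0.0576 to 5.06 in CL. The rule itself set the order of cool over warm, and thinning of this extent could not turn it. With thinning to 418016 siRNA reads in place of counted reads, the numbers were 11.6, 13.4 and 20.9 in LC and 25.9, 26 and 9.50 in LL. The mean was then lower in LC (15.3) than in LL (20.5), whereas by counted reads it was higher in LC (20.52 against 17.35), so the order of LC and LL at equal depth turned with the measure of depth. Control, which the rule did not use, listed 5, 8 and 9 of the 31, and 4.96, 7.87 and 6.11 at equal counted reads or 4.94, 7.95 and 4.55 at equal siRNA reads. By either measure these Control numbers lay above those of CC and below those of both cool groups.

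**Figure D1:**
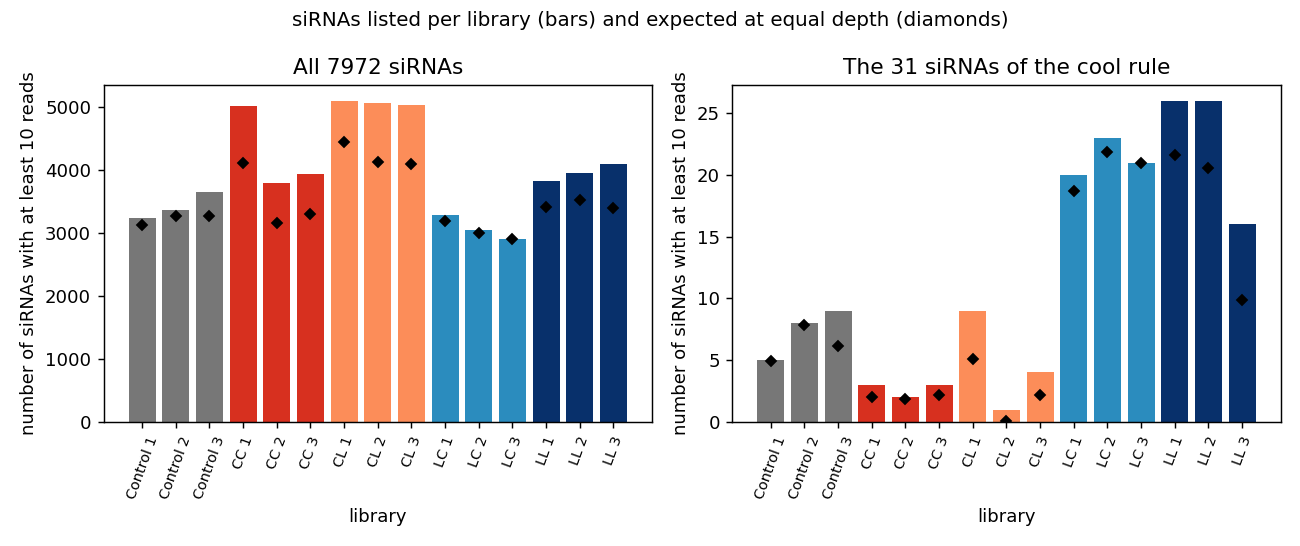
Number of siRNAs with at least 10 reads in each of the 15 libraries (bars) and the number expected after thinning to 15652847 counted reads (diamonds), for all 7972 siRNAs (left) and the 31 of the cool rule (right). Among the day 14 groups all siRNAs were listed least often in LC (2908 to 3286; Control 3232 to 3655), while the 31 were listed 16 to 26 times in a cool library and 1 to 9 times in a warm one, as the rule required.

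Most of the 31 were scarce. Of their 132 listed values in cool libraries, 97 were under 20 reads and 19 were at least 30, with a median of 14, a lowest of 10 and a highest of 665. A count of 14 has an exact 95% Poisson interval of 7.65 to 23.5, which covers counting error only and reaches below the listing minimum. For 86 of the 132 values the interval reached below 10 reads, so that a listed value and a neighbouring 0 need not differ. The highest value in any of the 15 libraries was under 20 reads for 11 of the 31 siRNAs, 20 to 49 for 17 and over 100 for 3. The few values in warm libraries were of the same order as the cool ones, 10 to 34 reads with a median of 13.

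The rule was met narrowly by most members. Exactly 4 cool libraries were listed for 24 of the 31, 5 for 6 and all 6 for 1, novel_sir3061. No warm library was listed for 9, and 1 was listed for 22, most often CL replicate 1, with 9 of these 22. Just inside the rule by reads, novel_sir8819 had 10 reads in LC replicate 2, 13, 11 and 10 in LL and 11 in CL replicate 1, and novel_sir7985 had 11, 12 and 10 in LC, 12 in LL replicate 3 and 13 in CL replicate 1. Both were at the listing minimum on either side. Just outside, 45 siRNAs had at least 4 cool libraries and exactly 2 warm ones. They included novel_sir5801, far more abundant than any member, with 2387, 2298 and 3155 reads in LL but also 143 in CC replicate 1 and 13 in CC replicate 3. They also included novel_sir3033, with 1212, 463 and 646 reads in LC and 13 and 21 in CC replicates 1 and 2. Both held more cool reads than any member, since the rule counts libraries and not reads.

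**Figure D2:**
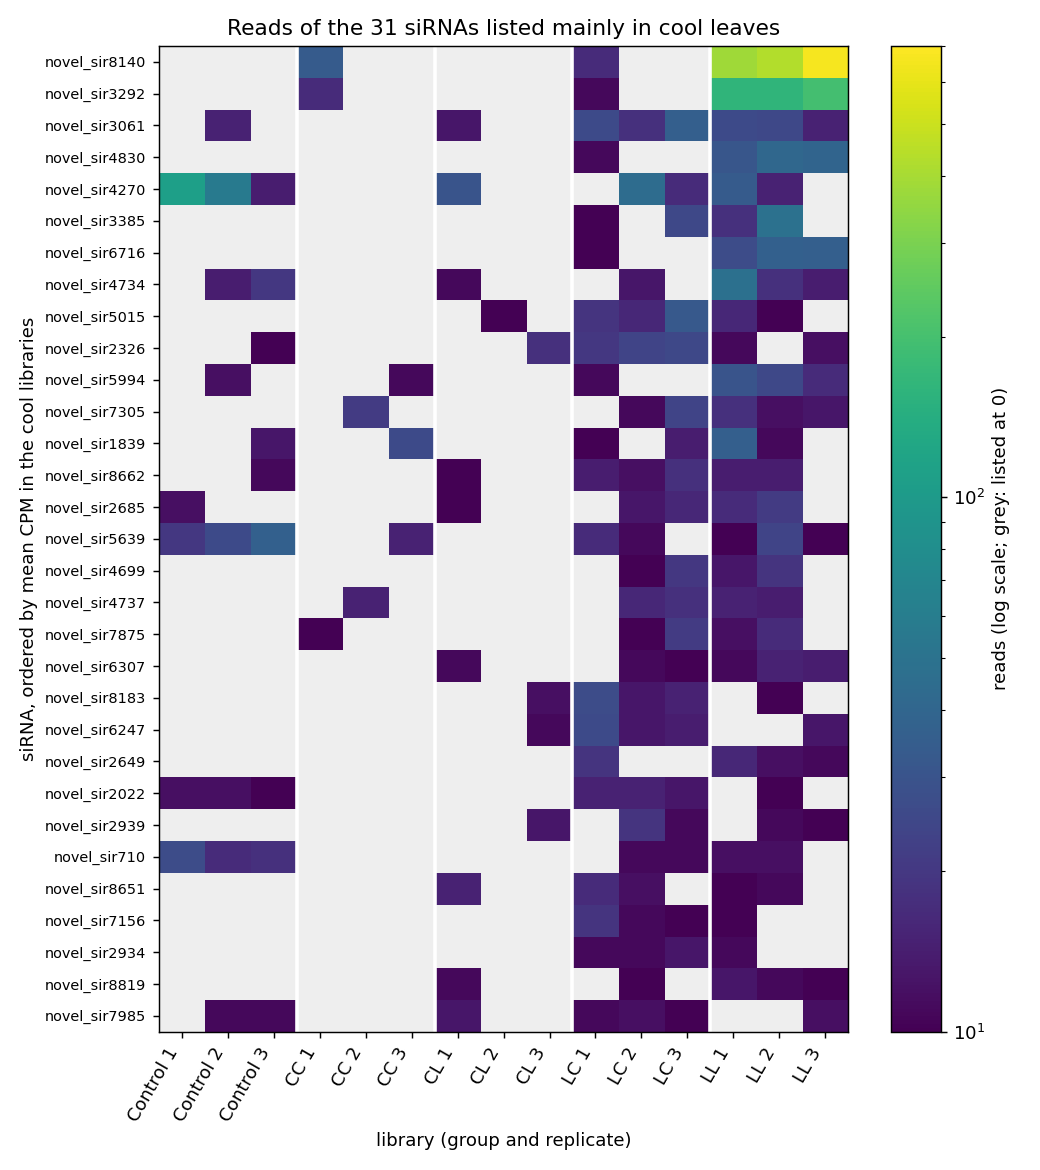
Reads of each of the 31 siRNAs (rows, ordered by mean level in the cool libraries) in the 15 libraries (columns), on a log colour scale, with grey for a listed 0. The top 2 rows have 161 to 665 reads in LL, novel_sir4270 has 110 in Control replicate 1, and every other coloured cell lies between 10 and 57.

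The range of a mean was taken by letting every listed 0 hold from 0 to 9 reads. With the cool zeros at 0 and the warm zeros at 9 reads, the cool mean in RPM (reads-per-million counted reads of a library) was still above the warm mean for 28 of the 31 siRNAs, and at least 2-fold above it for 7. The background over all siRNAs was 16.3%, with 145 of 7972 past 2-fold. The rule chose on this contrast, so nothing is read from the difference. The 3 whose ranges overlapped were novel_sir8651, novel_sir8819 and novel_sir7985. The least possible cool excess was 20.0-fold for novel_sir8140, 9.14-fold for novel_sir3292, 2.97-fold for novel_sir3061, 2.44-fold for novel_sir4830, 2.20-fold for novel_sir3385 and novel_sir6716 and 2.10-fold for novel_sir5015. These are the 7 members past 2-fold. For novel_sir8140 and novel_sir3292 the excess lay in LL and not in LC. At full light, with zeros taken as 0, novel_sir8140 had a mean of 0.348 RPM in LC against 0.550 in CC. For novel_sir3292 these means were 0.225 and 0.275 RPM.

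**Figure D3:**
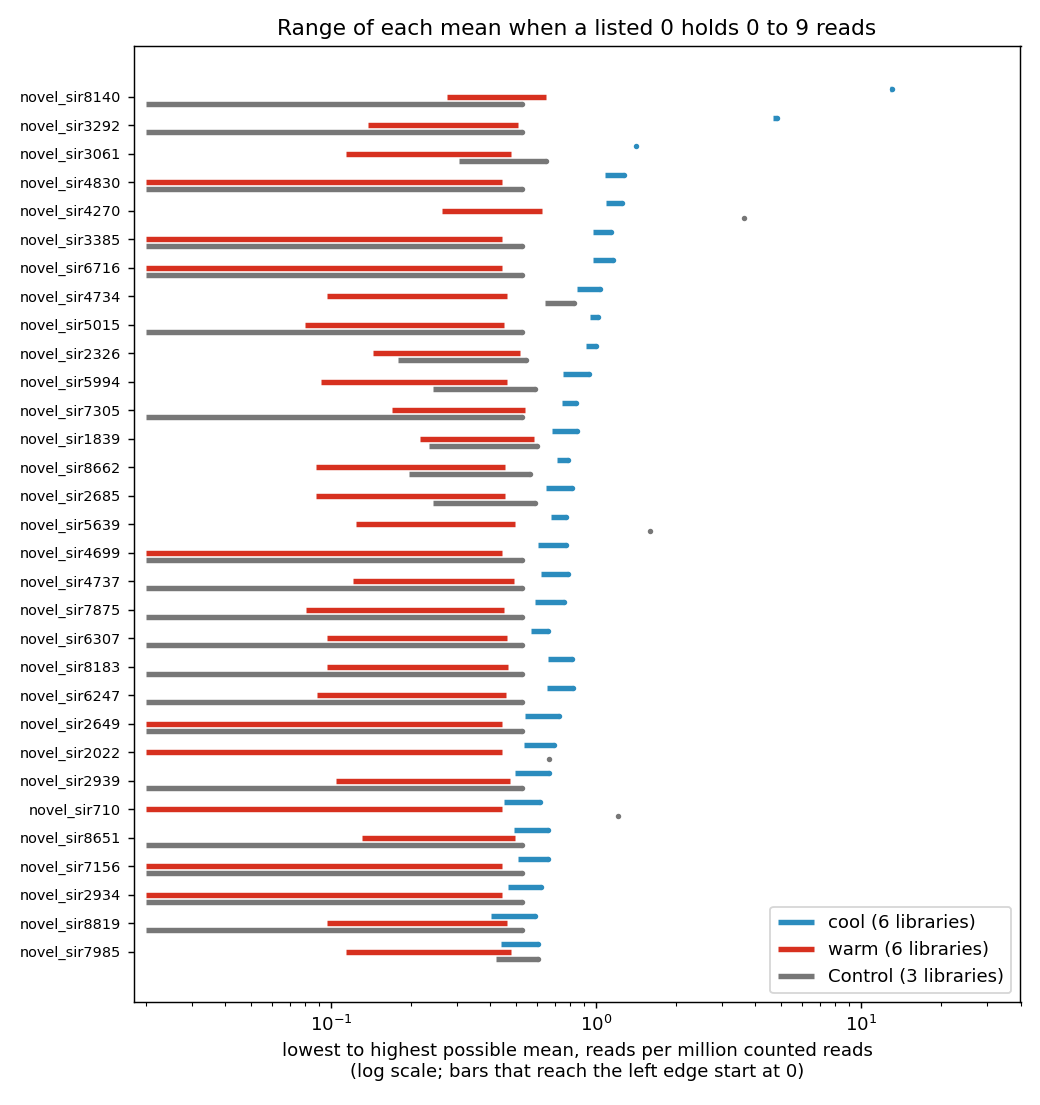
Lowest to highest possible mean of each of the 31 siRNAs in the cool (blue, 6 libraries), warm (red, 6 libraries) and Control (grey, 3 libraries) leaves, in RPM on a log axis, when a listed 0 holds 0 to 9 reads. Dots mark the highest possible cool and Control means, and bars at the left edge start at 0. Blue and red overlap for 3 siRNAs, and grey lies wholly to the right of blue for novel_sir4270, novel_sir5639 and novel_sir710.

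The most abundant members were siRNAs of cool shaded leaves. novel_sir8140 had 383, 427 and 665 reads in the LL libraries, 17 in LC replicate 1, 34 in CC replicate 1 and 0 in the other 10. novel_sir3292 had 162, 161 and 197 reads in LL, 11 in LC replicate 1, 17 in CC replicate 1 and 0 in the other 10. All 3 LL libraries lay far above every other library for both. The LL mean was 25.5 ± 5.95 RPM for novel_sir8140 and 9.07 ± 0.434 RPM for novel_sir3292 (SD, n = 3). Reads of the first divided by those of the second came to 2.36, 2.65 and 3.38 in LL, 1.55 in LC replicate 1 and 2.00 in CC replicate 1. Both were listed in exactly the same 5 libraries. How reads matching more than 1 siRNA were counted is not stated in the labels or the table.

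The siRNAs most like novel_sir8140 among the members, by Pearson's r of log2(CPM + 1), with CPM taken over siRNA reads, across the 15 libraries, were novel_sir3292 (r = 0.9996), novel_sir6716 (0.934) and novel_sir4830 (0.934), a description that rests largely on shared zeros. novel_sir4830 had 31, 41 and 39 reads in LL and 11 in LC replicate 1. novel_sir6716 had 27, 37 and 36 reads in LL and 10 in LC replicate 1. Neither was listed in any warm or Control library, so their 4 listings were the same. Among all siRNAs, the nearest non-members were novel_sir5801 (0.952), described above, novel_sir1991 (0.950), with 691, 565 and 319 reads in LL and 16 in CC replicate 1, and novel_sir6898 (0.945), with 16, 16 and 19 in LL and 12 in CC replicate 1. Lower values in CC replicate 1 or LC replicate 1 thus stood beside the LL values. These siRNAs were picked for likeness to novel_sir8140, which has such values itself, so nothing is read from the recurrence. The part of these libraries in the pattern was not tested.

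**Figure D4:**
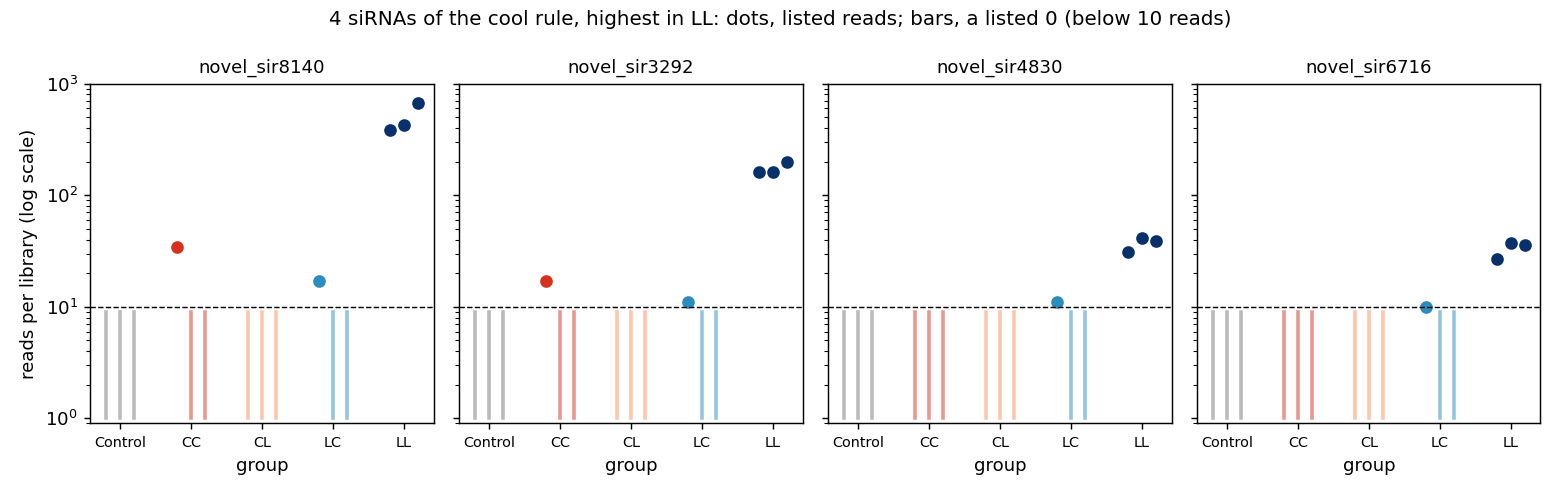
Reads per library, on a log axis, of the 4 siRNAs of the cool rule that were highest in LL, by group, with replicates 1 to 3 from left to right. Dots are listed reads, bars mark a listed 0, and the dashed line is the minimum of 10; the 3 LL dots stand above all others in each panel.

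Whether light mattered within the cool regime was asked by LL against LC. The rule treats both groups alike, but it needs at least 1 listed library in each, so a member cannot be missing from LC or LL altogether. All 31 members were among the 5252 siRNAs that passed the filter on low counts in at least 3 libraries. A member can pass it through the cool libraries that the rule asks for. Outside LL, novel_sir8140 and novel_sir3292 were listed only in LC replicate 1 and CC replicate 1, so they passed only with their LL reads. The same holds for novel_sir4830 and novel_sir6716, listed outside LL only in LC replicate 1. The test thus rests on counts that the rule and the filter also used. Its p-values for members are therefore descriptions, and no conclusion on light is drawn from them. By the quasi-likelihood test of edgeR, Benjamini-Hochberg adjusted over all 5252, 2 members were higher in LL and 0 were lower (0 also at an unadjusted p under 0.05 and by DESeq2). The background was 18.2% called, 13.9% higher and 4.38% lower, against 2 of 31 members, a smaller share. The median fitted log2 change was 0.02 over the 31 members and 0.35 over all tested.

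In that edgeR test novel_sir8140 had a log2 change of 6.24 ± 1.46 (SE, adjusted p = 0.0157) and novel_sir3292 one of 5.37 ± 1.36 (SE, adjusted p = 0.0231), both higher in 3 of 3 LL libraries. With the LC zeros at 9 reads and the LL values as listed, the LL mean was at least 35.2-fold above the LC mean for the first and at least 15.1-fold for the second. The calls did not hold under every setting. That of novel_sir8140 was lost by DESeq2 (adjusted p = 0.29) and without LC replicate 2, LC replicate 3 or LL replicate 3 (0.0582, 0.0536 and 0.053), with a range of 3.36e-06 to 0.29 over all alternatives. That of novel_sir3292 was lost by DESeq2 (0.34) and without LC replicate 2 or 3 or any 1 of the LL libraries (0.0631 to 0.0852), with a range of 2.96e-07 to 0.34 over all alternatives. Without LC replicate 1, whose reads were the only ones in LC, the fitted changes were 11.98 and 10.49, values that depend on the prior count because LC is then at 0.

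The ranges that the zeros allow were apart in 11 members with LL above LC (background 25.7%) and in 14 with LC above LL (background 21.4%). Above 2-fold whatever the zeros hold, next to the 4 siRNAs of the LL pattern, were novel_sir4734 (at least 2.22-fold) and novel_sir5994 (at least 2.12-fold) in LL. In LC they were novel_sir2326 (2.57-fold), novel_sir8183 (2.32-fold), novel_sir5015 (2.29-fold) and novel_sir6247 (2.04-fold). Over all siRNAs, 550 of 7972 were past 2-fold in LL over LC and 513 in LC over LL. In TMM-scaled CPM of siRNA reads, the libraries of both groups did not overlap for 12 members, 6 with all LL libraries above all LC libraries (background 22.8%) and 6 with all below (background 10.6%). Above, next to the 4 siRNAs of the LL pattern, were novel_sir5994, with 30, 25 and 17 reads in LL against 11, 0 and 0 in LC, and novel_sir6307, with 11, 15 and 14 against 0, 11 and 10, where equal reads of 11 were apart only after scaling to siRNA reads. Below were novel_sir8183, novel_sir6247, novel_sir2022, novel_sir7156, novel_sir2326 and novel_sir7985. Some of these too were apart only after scaling, such as novel_sir7985, with 12 reads in LL replicate 3 against 10 to 12 in LC. In each of 3 scalings (TMM-scaled CPM, unscaled CPM of siRNA reads and RPM), 5 members had all LL above all LC (background 21.3%), those named without novel_sir6307. In each of the 3, 4 members had all LL below all LC (background 7.81%), namely novel_sir2326, novel_sir8183, novel_sir6247 and novel_sir2022. The largest fitted fall was that of novel_sir8183, with 27, 13 and 15 reads in LC against 0, 10 and 0 in LL. novel_sir6247 was close to it, with 26, 13 and 14 against 0, 0 and 13. The 10 of the 12 that did not pass the edgeR test had log2 changes of -2.55 ± 2.41 (novel_sir8183, SE, adjusted p = 0.514) to 3.12 ± 1.98 (novel_sir4830, SE, adjusted p = 0.29). Their SEs were 1.82 to 2.41.

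The number of calls moved with how a 0 is read. With each 0 of the table set to 9 reads, the most it can hide, 5 members were called higher in LL (background 6.67%) and 3 lower (background 3.04%). With each 0 set to 5 reads, it was 5 higher (background 11%) and 7 lower (background 13%). The 5 were novel_sir8140, novel_sir3292, novel_sir4830, novel_sir6716 and novel_sir5994 in both settings. A constant in place of the zeros lowers the spread between libraries by construction. The 3 called lower with each 0 at 9 reads were novel_sir2326, novel_sir5015 and novel_sir8183, whose highest values were 25, 33 and 27 reads.

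**Figure D5:**
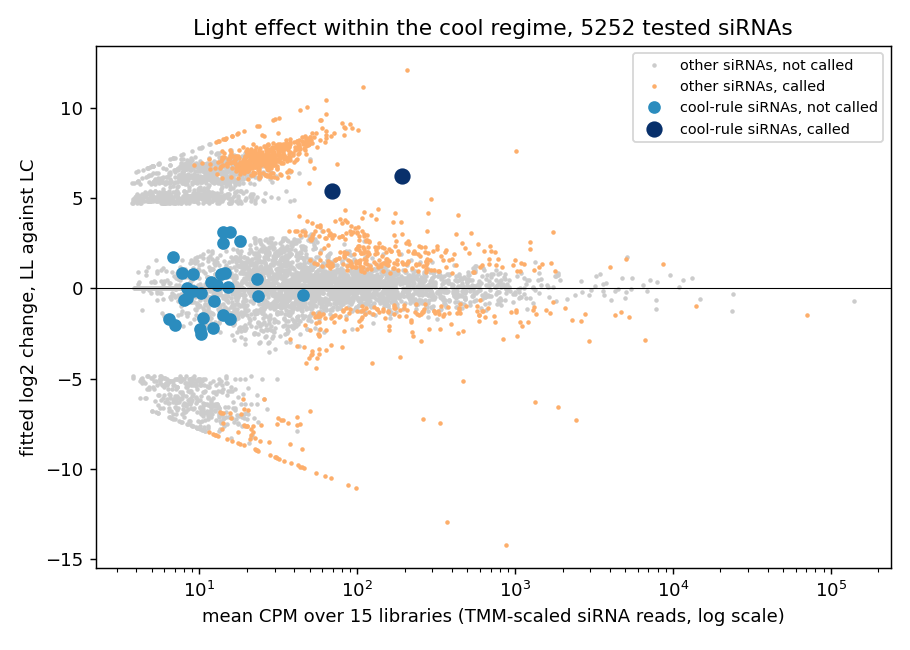
Fitted log2 change of LL against LC for each of the 5252 tested siRNAs against its mean level in CPM of siRNA reads on a log axis, with the 31 siRNAs of the cool rule as large blue dots. The 2 dark dots, at 6.24 and 5.37, are the members that passed, and the separate bands beyond about the 5 mark are siRNAs with 0 reads in 1 of the 2 groups, which the rule keeps out of its members.

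By light, the rule leaves only a few combinations of LC and LL libraries open to a member, so the patterns are descriptions. Over all siRNAs, 3.54% had all 3 LL libraries and 1 LC library, 1.10% had the reverse and 1.35% had 2 of each. All 3 LL libraries and 1 LC library were listed for 8, namely the 4 of the LL pattern, novel_sir5994, novel_sir4734, novel_sir2649 and novel_sir8819, and the LC library was replicate 1 for 6 and replicate 2 for 2. The reverse, all 3 LC libraries and 1 LL library, was listed for 6, namely novel_sir8183, novel_sir6247, novel_sir2022, novel_sir7156, novel_sir2934 and novel_sir7985. A further 10 had 2 libraries of each group, and in 9 of these 10 the LL library not listed was replicate 3. LL replicate 3 was the deepest cool library, with 20613304 counted reads, and listed the most siRNAs of the 6, 4098, but it listed the fewest members, 16 against 26 in each of the other LL libraries. It stood apart in this way for the scarce members, while novel_sir8140 was highest there. The cause was not tested.

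The 7 members listed in 5 or 6 cool libraries were led by novel_sir3061, with 26, 18 and 36 reads in LC and 26, 25 and 15 in LL, 13 in CL replicate 1 and 15 in Control replicate 2. Its 6 cool values overlapped between LC and LL. novel_sir5015 had 19, 16 and 33 reads in LC, 16, 10 and 0 in LL and 10 in CL replicate 2. novel_sir2326 had 20, 24 and 25 reads in LC, 11, 0 and 12 in LL, 18 in CL replicate 3 and 10 in Control replicate 3. In both the LC values were mostly the higher ones, and neither passed the test. novel_sir7305 had 0, 11 and 24 reads in LC, 18, 12 and 13 in LL and 21 in CC replicate 2. novel_sir8662 had 14, 12 and 18 in LC, 14, 14 and 0 in LL, 10 in CL replicate 1 and 11 in Control replicate 3. The single warm value lay within the cool range in the former. In the latter it lay just below the listed cool values, but LL replicate 3 was at 0. novel_sir6307 and novel_sir5639, described with the other patterns, complete the 7. novel_sir3385 had 10, 0 and 25 reads in LC and 18, 49 and 0 in LL, with no warm or Control library listed. Its cool level was uneven within both groups.

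Seen by reads, members made up a small part of the siRNA pool. They held 19.7 to 23.9 RPM in LC and 52.8 to 55.9 in LL, against 7.76 to 10.97 in Control, 1.75 to 2.96 in CC and 0.480 to 6.52 in CL. novel_sir8140 and novel_sir3292 alone gave 54.3%, 57.0% and 79.2% of the member reads in the LL libraries. As a share of siRNA reads, the members stood 3.29 times higher in LL than in LC, and 1.27 times without these 2. Against Control the ratio was 1.99 for LC and 6.54 for LL, and 2.46 for LL without the 2. With all counted reads as the denominator, the ratio of LL over LC for all members was 2.545. The excess of LL over LC therefore lay mostly in 2 siRNAs. The other 29 held 25.3, 24.1 and 10.96 RPM in LL and 17.98, 20.8 and 23.9 in LC, and these values overlapped. Whether LL exceeded LC in the other 29 thus depended on the denominator.

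Control shows which members were already listed before the regimes began. Of the 31, 19 were listed in none of the 3 Control libraries, 6 in 1, 2 in 2 and 4 in all 3. None was thus the state of 61.3% of members, of 47.8% of the 485 siRNAs of the mirrored warm rule and of 45.9% of all siRNAs. All 3 was that of 12.9%, 9.90% and 32.9%. In the sets of the same rule by light, none was the state of 58.5% (full light over shaded) and 49.8% (shaded over full light). All 3 was that of 3.77% and 5.05%. These shares are descriptions without a test. Control libraries had 16440667 to 18557618 counted reads, a depth close to that of the cool libraries, so that the listing minimum was alike in both.

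The 4 members listed in all 3 Control libraries were present on day 0. novel_sir4270 had 110, 57 and 14 reads in Control, 0, 45 and 17 in LC, 34, 15 and 0 in LL and 30 in CL replicate 1. novel_sir5639 had 20, 26 and 37 in Control, 17, 11 and 0 in LC, 10, 24 and 10 in LL and 15 in CC replicate 3. novel_sir710 had 27, 17 and 18 in Control, 0, 11 and 11 in LC, 12, 12 and 0 in LL and no warm library. In these 3 the Control level was above the cool one whatever the zeros hold, by at least 2.89-fold, 2.07-fold and 1.98-fold (background 19.5%), and above the warm one by at least 5.78-fold, 3.23-fold and 2.74-fold (background 13.3%; 5 members in all). novel_sir2022 had 12, 12 and 10 in Control, 15, 15 and 13 in LC, 10 in LL replicate 2 and no warm library. The other member with Control above warm was novel_sir4734, by at least 1.39-fold, and for novel_sir2022 the Control level was at least 1.5-fold above the warm one. Warm values were used to choose the members, so none of these differences was tested.

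At the other end, 7 members were listed in neither a warm nor a Control library. In order of cool level they were novel_sir4830, novel_sir3385, novel_sir6716, novel_sir4699, novel_sir2649, novel_sir7156 and novel_sir2934. novel_sir4699 had 0, 10 and 20 reads in LC and 13, 19 and 0 in LL. novel_sir2649 had 19, 0 and 0 in LC and 16, 12 and 11 in LL. novel_sir7156 had 19, 11 and 10 in LC and 10, 0 and 0 in LL. novel_sir2934 had 11, 11 and 13 in LC and 11 in LL replicate 1. These last 4 stayed at or below 20 reads in every library. Over the whole set, the cool mean was above the Control mean whatever the zeros hold for 21 of 31 (background 21.3%, on a contrast whose cool side chose the members). It was at least 2-fold above it for 4, namely novel_sir8140 (at least 24.6-fold), novel_sir3292 (8.83-fold), novel_sir3061 (2.19-fold) and novel_sir4830 (2.06-fold). Over all siRNAs, 206 of 7972 were past 2-fold. By group, again whatever the zeros hold, the mean was higher in LL than in CL for 21 members (background 19.5%), in LC than in CC for 21 (background 19.6%), in LL than in CC for 20 (background 22.2%) and in LL than in Control for 17 (background 24.4%). The cool and warm groups chose the members, so all of these counts are descriptions, that against Control included. For novel_sir4830 and novel_sir6716 the LL level was at least 3.69-fold and 3.32-fold above Control, and for novel_sir8140 and novel_sir3292 at least 48.5-fold and 17.2-fold.

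The remaining members filled in the same picture at the listing minimum. novel_sir4734 had 48, 18 and 14 reads in LL, 13 in LC replicate 2, 11 in CL replicate 1 and 14 and 20 in Control replicates 2 and 3. novel_sir1839 had 36, 11 and 0 in LL, 10, 0 and 14 in LC, 26 in CC replicate 3 and 13 in Control replicate 3. Its warm value was higher than all but 1 of its cool ones. novel_sir2685, novel_sir4737, novel_sir7875, novel_sir2939 and novel_sir8651 each had 2 LC, 2 LL and 1 warm library listed and no value above 21 reads.

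Secondary siRNAs depend on trigger microRNAs and on the small-RNA machinery, so a list of 9 such miRNA families was set beside the siRNAs. It held miR390, miR482, miR828, miR393, miR2118 and miR173, triggers of secondary siRNAs in other plants, and miR162, miR168 and miR403, which in Arabidopsis target DICER-LIKE1, ARGONAUTE1 and ARGONAUTE2. miR2118 and miR173 were not analysed here. Of the 7 tested, 1 was higher and 1 lower in LL than in LC by the same edgeR test on family sums, Benjamini-Hochberg adjusted (background 38.2% of 34 families). miR168 was lower, at 12564, 18149 and 13297 CPM of miRNA reads in LL against 64775, 31829 and 28715 in LC (log2 change -1.51 ± 0.38, SE, adjusted p = 0.0046), and the 2 groups did not overlap. miR162 was higher, at 22761, 25362 and 12004 against 11303, 7383 and 13748 CPM (0.89 ± 0.33, SE, adjusted p = 0.0435), but its groups overlapped. Over the alternatives its adjusted p ran from 0.0108 to 0.853, and it was above the threshold with each other scaling, with DESeq2, with the replicate block, with the LC and LL libraries alone, without LC replicate 1 (0.334) or 2 (0.133) and without LL replicate 1 (0.397) or 2 (0.166). For miR168 the range was 5.66e-10 to 0.0231. Of the trigger families, miR390 missed the threshold in the same edgeR test (-0.81 ± 0.32, SE, adjusted p = 0.0602) but was called lower in LL under 7 of 13 alternatives, all 3 other scalings and DESeq2 among them (adjusted p 6.81e-08 to 0.158 over the 13). The families miR482 (0.66 ± 0.39, SE, 0.174), miR828 (0.38 ± 0.59, SE, 0.598) and miR393 (0.46 ± 0.31, SE, 0.244) did not pass, nor did miR403 (0.54 ± 0.26, SE, 0.111). LL and LC also did not overlap for miR390, at 434, 430 and 503 against 899, 680 and 818 CPM. The same was true of miR403, at 4725, 5099 and 4892 against 2804, 3703.5 and 3604 CPM. How many of the 34 families had no overlap was not counted. No link between these families and the siRNAs was tested.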

How the data were processed

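Small-RNA libraries of 15 leaf samples were counted by the authors. Per the file headers, the deposited table gives raw counts of reads per small-RNA feature and TPM. The TPM values, per the file headers and the values, are reads scaled to the whole library (RPM) with no length term and 0.001 for a 0, and only this scaling was checked from them. The sources used here do not give the aligner, the siRNA predictor, the listing minimum or the genome build. siRNA rows held 0 or at least 10 reads. Members were found by the presence rule on the counts. The members and lists were chosen with earlier results of these data known.

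LL against LC was fitted on all siRNAs with edgeR 4.0.16 (filterByExpr, TMM factors 0.773 to 1.24, quasi-likelihood, 1 mean per group over 15 libraries, R 4.3.3). The common biological coefficient of variation was 0.848, and each SE was derived from the log2 change and its F statistic. A call is an adjusted p under 0.05. The count model takes a hidden value of 1 to 9 reads as 0. miRNA families are sums of mature and hairpin reads with the same number. Equal-depth numbers use the hypergeometric formula with at least 10 reads. The plan had at least 1 read, which thinning hardly touches in rows that start at 10. Named are the 10 members highest in cool leaves, the called members without overlap, the 5 highest listed in neither Control nor warm libraries, those in all 3 Control libraries, examples beside the rule's limits and the 3 siRNAs most like the highest member. Other members are named after their values were seen, to account for all 31. Alternatives included DESeq2 1.42.0 and each library left out. The fits were tested on simulated data. For siRNAs the simulated spread was lower than the fitted one, so that test says little about the scarce members. Python 3.11.15 and matplotlib 3.10.9 were used.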

Additional observations from a re-analysis of the deposited data

How the results depend on the processing

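Calls of members in LL against LC (2 higher, 0 lower) were the same with relative-log-expression size factors, siRNA or all counted reads as library size, both other filters and only the LC and LL libraries. DESeq2 called 0 members higher, with 357 of all siRNAs lower against 230. Setting each 0 to 9 reads gave 5 members higher and 3 lower, and to 5 reads gave 5 and 7, with 684 of all siRNAs lower. Both fills were chosen after seeing the data. With 1 library left out, 0 to 2 members were higher, and 141 to 245 of all siRNAs lower. The replicate number as a block gave 2 and 0 members and 618 and 180 of all siRNAs, against 728 and 230, and changed no other call of a named siRNA. It lost the miR162 call, leaving 0 listed families higher. Same-numbered LC and LL libraries did not deviate together (r = -0.103, -0.0703 and -0.0929), so the numbers were not taken as pairs. The median log2 change of all siRNAs was 0.35, or 0.27, 0.61 and 0.20 with relative-log-expression factors, siRNA reads only and all counted reads. Listed families were 0 higher and 2 lower (miR168 and miR390) with each other scaling, DESeq2 or the LC and LL libraries alone, and 0 to 1 higher and 1 to 2 lower with a library left out.

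The set itself moved most. Needing all 6 cool libraries left 1 siRNA (1 in at least 1 Control library, 0 in all 3), and allowing 0 warm libraries left 9 (2 and 2). Presence from 20 reads gave 17 siRNAs (7 and 1), of which 1, novel_sir3061, was a member, and from 0.65 RPM 46 (25 and 4), of which 13 were members. These 2 thresholds were also added later. With 1 cool library left out and the limits of the rule kept, which can only lower the number, 11 to 20 siRNAs met it. With 1 warm library left out, which can only raise the number, 40 to 51 met it. Of these sets, 5 to 25 siRNAs were in at least 1 Control library and 1 to 8 in all. At 0.5 RPM 40 siRNAs met the rule (18 and 5). Thresholds of 10 reads or 10 CPM of siRNA reads lie at or below every listed value and could not change the set. Thinned to equal siRNA reads, with at least 1 read kept as planned, the mean number of members listed was 21.33 in LC and 22.67 in LL. Low counts limit all but a few members.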
